A study of Mus musculus with 29 samples.

Results

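The IL-10 family of cytokines and receptors was followed in mouse colon as 10 genes (Il10, Il19, Il22, Il24, Il10ra, Il10rb, Il22ra1, Il22ra2, Il20ra and Il20rb), chosen by their symbols from the 54532 genes of the count table. RNA-seq of colon segments from 29 mice gave 9 groups, 6 colitis models and 3 untreated control groups, with 3 or 4 mice each. By their labels, wild-type Balb/C mice were untreated (3 mice), given 3% dextran sulfate sodium (DSS) in drinking water for 5 days and killed at day 10 (3 mice), given 3 mg of the hapten DNBS in 50% ethanol into the rectum (3 mice), or given an IL10 blocking antibody (4 mice). For the antibody group the protocol names 750 µg of anti-IL-10R and 4 weeks to the end of the experiment, whereas the paper describes mice that lack the Il10 gene, so what was blocked could not be settled from the sources. Balb/C Rag2-/- mice, which form no mature T or B cells, were untreated (3 mice) and served as controls for TRUC mice (Balb/C Tbx21-/- x Rag2-/-, 4 mice), which develop colitis without treatment. C57BL/6 Rag1-/- mice, lymphocyte-deficient as well, were untreated (3 mice), received naive CD4+ T cells and were killed after 6 to 8 weeks (T-cell transfer, 3 mice), or received 50 µg of an agonist antibody to CD40 and were killed after 7 days (3 mice). The protocol gives Rag2-/- recipients for the T-cell transfer, against the genotype label, and the paper's methods name C57BL/6 mice for DSS, against the strain label. Those methods also give other times, day 7 or 8 for DSS and 4 to 6 weeks for T-cell transfer. For DNBS they give 3 days. An age was stated, in weeks in the paper's methods, for the T-cell transfer donors and recipients alone, and by it both were young adults. The tissue was whole colon, and nothing stated whether the mice of a group shared a cage or litter.

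Cytokines of the IL-10 family signal through pairs of a ligand-binding chain and a shared chain, and the receptor-bound kinases JAK1 and TYK2 phosphorylate STAT3. IL-10 binds IL10RA with IL10RB on leukocytes and restrains macrophages and dendritic cells, and mice without it are prone to colitis. IL-22 comes mainly from innate and T lymphocytes and binds IL22RA1 with IL10RB on epithelial cells, where it drives antimicrobial, mucus and repair genes, while IL-22 binding protein, encoded by Il22ra2, is a soluble decoy. IL-19, IL-20 and IL-24 act through IL20RA paired with IL20RB, and IL-20 and IL-24 also through IL22RA1 paired with IL20RB.

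Total counts ran from 10725564 to 14977094 per mouse, and levels are given as CPM, the count scaled to the TMM-adjusted size of its library, where 3 counts, the limit that a count of 0 allows, amount to between 0.179 and 0.314 CPM. The labelled strain was checked with H2-Ea-ps, the gene of the class II E alpha chain, which C57BL/6 mice do not express because of a promoter deletion and Balb/C mice do. H2-Ea-ps had 784 to 3956 counts in each of the 13 Rag2-/- control, TRUC, Rag1-/- control and anti-CD40 mice and 0 or 1 count in each of the 16 wild-type control, DSS, DNBS, IL10 antibody and T-cell transfer mice. The 3 Rag1-/- control mice had 6 to 20 counts of Rag2 and 0 to 4 of Rag1, close to the Rag2-/- controls (15 to 25 and 0 to 2), and the anti-CD40 mice had 48 to 99 and 0 to 2, whereas the 3 T-cell transfer mice had 0 counts of Rag2 and 20 to 33 of Rag1. The strain label of 19 mice went against H2-Ea-ps, and the untreated and anti-CD40 mice labelled Rag1-/- resembled the mice labelled Rag2-/- in their Rag transcripts; groups were kept as labelled. TRUC mice, labelled Tbx21-/-, had 26 to 52 counts of Tbx21 against 1 to 7 in Rag2-/- controls, and which part of the gene those reads cover is not known from the count table. T-cell transfer mice and the mice labelled as their controls differed in H2-Ea-ps as well as in treatment, and those effects cannot be told apart in that comparison. Values for T-cell transfer against wild-type controls, and for anti-CD40 against Rag2-/- controls, are given beside it. Wild-type controls are not Rag-deficient, so in all values of T-cell transfer against them Rag genotype and treatment cannot be told apart. Epithelial markers (Epcam, Cdh1, Krt8, Krt19, Krt20, Vil1 and Cdx2) were detected in every group at a summed level of 6586 to 19490 CPM, and the T-cell marker Cd3d was at 0 in the Rag2-/- and Rag1-/- controls. DSS mouse 8 stood apart, with summed leukocyte markers (Ptprc, Cd52, Coro1a and Laptm5) of 1155 CPM against 333 and 399 CPM in the other DSS mice.

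Il10, Il19 and Il24 lie on chromosome 1, within 142.9 kb, at 131019845-131024974 on the plus strand and at 130932656-130940115 and 130882074-130887454 on the minus strand (GRCm38, GENCODE M21). Il22 lies on chromosome 10 at 118204942-118210047 on the plus strand, 79.6 kb from a near-identical copy, Iltifb, at 118289629-118295038 on the minus strand. Il22ra2 (19621998-19634681) and Il20ra (19712570-19760053) are neighbours on the plus strand of the same chromosome. Of the 50-base windows of Il22 exons, 41.0% occur unchanged in Iltifb, so reads could be split between the copies or dropped by the counting. The copies are shown because the Il22 count rests on them. Their 537 coding bases differ at 9 positions (98.3% identity), with a longest identical run of 215 bases. The stretch of 150 coding bases that holds most of the differences, bases 68 to 217 counted from the A of the start codon, is given 5′ to 3′ with the 5 differing bases in capitals (G106A, A150G, C188T, T213C and C217T, the Il22 base first). It covers the end of coding exon 1 and the start of exon 2, at chr10:118205058-118205176 and chr10:118205570-118205600 on the plus strand for Il22, and at chr10:118294804-118294922 and chr10:118294380-118294410 on the minus strand for Iltifb.
Il22: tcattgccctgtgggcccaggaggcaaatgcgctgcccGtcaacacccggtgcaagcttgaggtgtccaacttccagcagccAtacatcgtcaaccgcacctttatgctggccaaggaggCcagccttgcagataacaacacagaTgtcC
Iltifb: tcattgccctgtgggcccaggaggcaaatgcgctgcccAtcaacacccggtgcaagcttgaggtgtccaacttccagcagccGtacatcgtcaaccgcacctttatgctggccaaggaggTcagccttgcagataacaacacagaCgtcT
Over all mice Il22 had 887 counts in 19 libraries and Iltifb 18 counts in 9 libraries, with no more than 4 in a library.

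All 10 genes were in the table. A mean of at least 3 counts over all mice was needed for a test, and 8 of the 10 passed; Il19 (21 counts in all) and Il24 (9 counts in all) did not. Il10, Il22 and Il20ra were near 0 in the controls and passed through the groups where they were high, so the counts of called members below describe the genes and carry no test of the family. Per kilobase of exon, the receptors of epithelium and the shared chain were the most abundant: the mean level over 29 mice was 23.9 CPM per kb for Il22ra1 and 11.6 for Il10rb. Il10ra followed at 4.86, Il22ra2 at 2.37, Il22 at 2.22, Il10 at 1.22 and Il20rb at 0.612 CPM per kb. The place of Il22 in this order rests on DSS mouse 8, which held 633 of its 887 counts. Its median over 29 mice was 0.523 CPM. Il20ra, Il19 and Il24 had means of 0.101, 0.0509 and 0.0186 CPM per kb. The plot of levels by mouse shows all tested members.

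**Figure D1:**
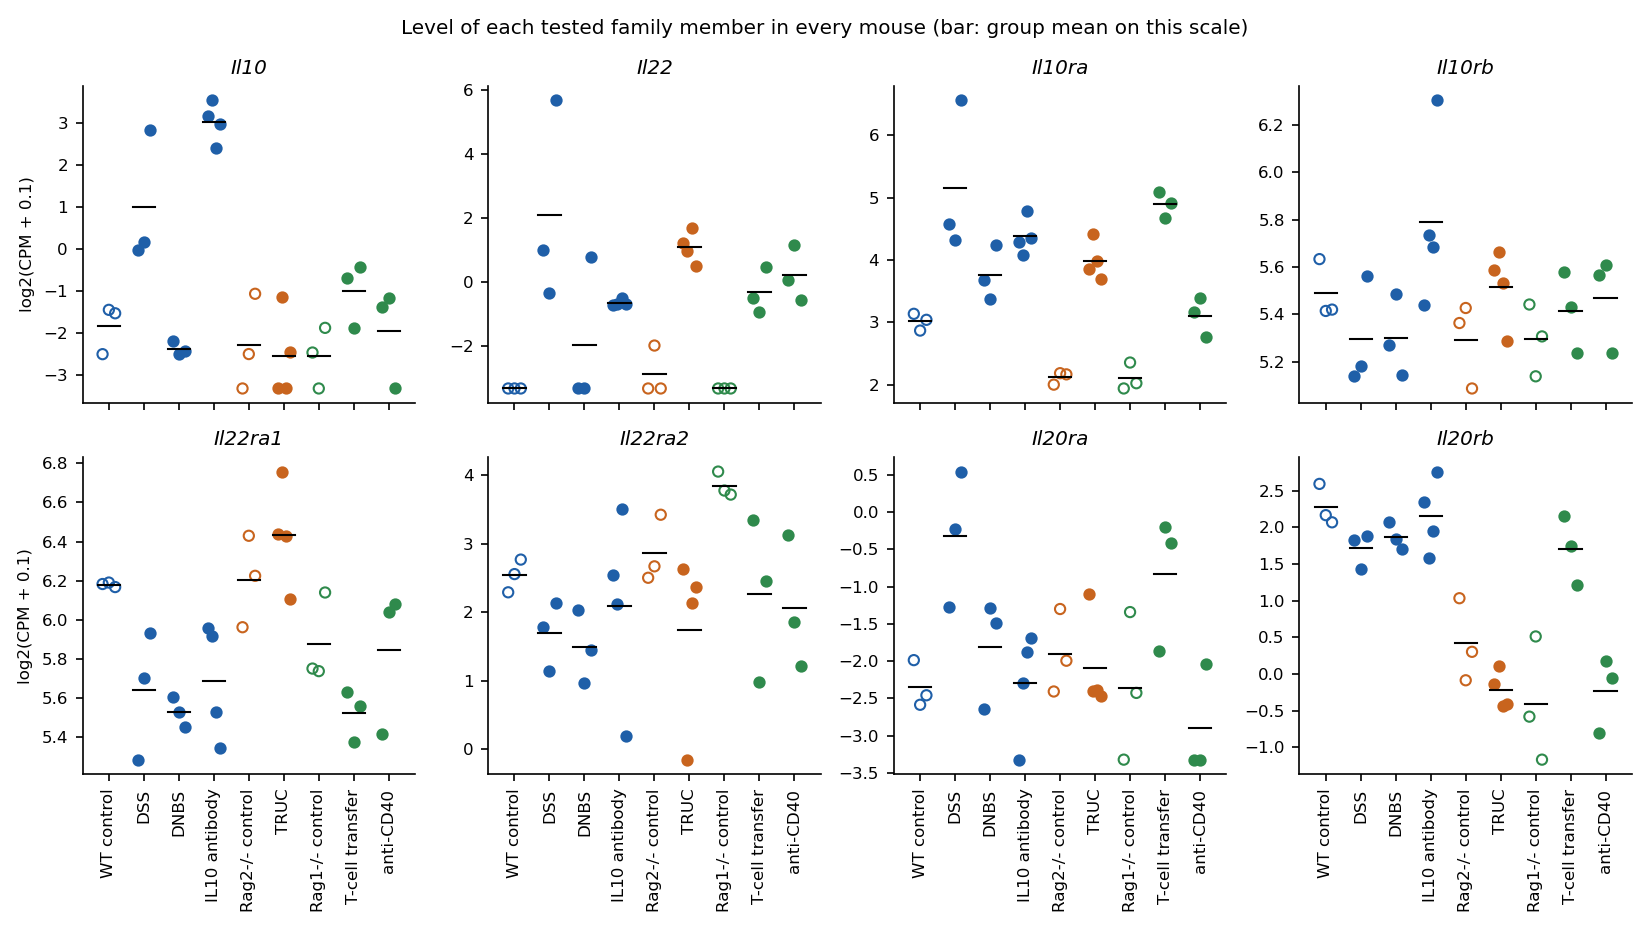
Level of the 8 tested members in each of 29 mice, as log2(CPM + 0.1) on the vertical axis, by group on the horizontal axis; open circles are untreated controls, filled circles colitis models, black bars group means on this scale, and colours join models to their labelled controls. Il22 is at 0 counts in all wild-type and Rag1-/- control mice, and Il20rb is lower in the Rag2-/- control, TRUC, Rag1-/- control and anti-CD40 mice (0.344 to 1.95 CPM) than in every other mouse (2.22 to 6.69 CPM).

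Il22, the ligand with the widest range, was found in every mouse of 5 colitis models and in 1 of 3 DNBS mice. TRUC mice had 2.21, 1.87, 3.12 and 1.30 CPM (30, 21, 34 and 16 counts), and their Rag2-/- controls had 0, 0.153 and 0 CPM (2 counts in all). All 4 TRUC mice lay above all 3 controls. The ratio of pooled counts per pooled library size was 39.6, with an exact counting interval of 10.7 to 331, and the change was 5.08 on the log2 scale (SE 1.79, adjusted p = 0.0259, edgeR quasi-likelihood fit, Benjamini-Hochberg); this call was lost when any 1 of the 3 controls was left out (adjusted p 0.0518 to 0.0838).

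DSS mice had 1.89, 0.684 and 50.6 CPM of Il22 (30, 10 and 633 counts) against 0 counts in all 3 wild-type controls. Mouse 8 alone carried 633 of the counts, and the other DSS mice lay in the range of the TRUC mice and below. The mean of 17.7 ± 28.5 CPM (SD, n = 3) was at least 78.9-fold higher than a floor of 3 counts per control library, and without mouse 8 at least 5.72-fold higher. Il22 passed the threshold with all 3 mice (adjusted p = 0.000601, edgeR) and without mouse 8 (adjusted p = 0.00820), but not when edgeR was fitted to the DSS and control mice alone (adjusted p = 0.0757).

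IL10 antibody mice had 0.506, 0.520, 0.601 and 0.523 CPM of Il22 (5 to 7 counts), T-cell transfer mice 0.611, 0.427 and 1.30 CPM, and anti-CD40 mice 0.939, 2.14 and 0.574 CPM, each group against 0 counts in all its controls. Every one of these 10 mice lay above all its controls, and the means were at least 2.39-fold, 3.23-fold and 5.06-fold higher than the floor. None passed the threshold in the fit of all groups (adjusted p 0.107, 0.114 and 0.0741, edgeR), and all did with DESeq2 on the groups compared (adjusted p 0.000677, 0.000661 and 7.90e-05). DNBS mice had 0, 0 and 1.62 CPM (19 counts in mouse 16), and the change was not past the threshold (adjusted p = 0.263). From high to low, the mean level of Il22 followed the order DSS, TRUC, anti-CD40, T-cell transfer, DNBS and IL10 antibody, and each neighbouring pair of these overlapped between mice. The first place rests on DSS mouse 8, without which the DSS mean was 1.29 CPM, below TRUC at 2.13 CPM, and the place of DNBS rests on mouse 16.

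Il10 itself was high in the IL10 antibody group and in DSS mice. The 4 IL10 antibody mice had 8.94, 11.5, 5.23 and 7.84 CPM (61 to 111 counts), and the wild-type controls had 0.0762, 0.266 and 0.246 CPM (1 to 4 counts). The groups did not overlap, and the mean was 42.7-fold higher (log2 change 5.33, SE 0.82, adjusted p = 1.75e-05, edgeR). DSS mice had 0.881, 1.03 and 7.04 CPM, all above the controls, with a log2 change of 3.82 (SE 0.86, adjusted p = 0.00148); without mouse 8 the change was 2.21 (adjusted p = 0.0460) and the fold of means dropped from 15.2 to 4.86.

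In the other models Il10 stayed at a few counts per mouse. TRUC mice had 0 to 4 counts against 0 to 5 in Rag2-/- controls, DNBS mice 1 or 2, anti-CD40 mice 0 to 4 and T-cell transfer mice 2 to 7. T-cell transfer mice had 0.524, 0.171 and 0.649 CPM against 0.0811, 0 and 0.172 CPM in their labelled controls, which overlapped (adjusted p = 0.169). A change was not detectable at this depth in these 4 models. B- and plasma-cell markers (Ms4a1, Cd79a, Cd79b, Jchain and Mzb1) summed to 1249.6 to 2110.1 CPM in the IL10 antibody mice against 118 to 398 CPM in wild-type controls. Most of that sum was Jchain (11315 to 21017 against 845 to 3777 counts). Mzb1 was above every control as well (385 to 1166 against 35 to 106 counts). Ms4a1 (32 to 507 against 158 to 205 counts), Cd79a and Cd79b overlapped the controls. T-cell markers (Cd3e, Cd3g, Cd3d, Cd4 and Cd8a) summed to 67.0 to 115 against 9.59 to 16.5 CPM. The part of these markers in the level of Il10 was not tested.

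The other ligands were close to absent. Il19, made by macrophages and epithelium, had 14 counts in DSS mouse 8, 3 in DNBS mouse 14, and at most 1 in each of the other 27 mice. Il24 had at most 3 counts in a mouse. With no filter on low counts, Il19 passed the threshold in DSS (adjusted p = 0.0420, edgeR) on mouse 8, which held 14 of the 15 DSS counts. Il24 passed in none of the 6 models. Il20 had 0 counts in all 29 mice, Ifnl2 had 0, and Ifnl3 had 1 count.

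Il10ra, the IL-10-binding chain carried by leukocytes, was the receptor that changed in most models. TRUC mice had 14.3, 21.4, 15.8 and 12.9 CPM and Rag2-/- controls 3.90, 4.44 and 4.38 CPM. DSS mice had 23.9, 19.9 and 94.4 CPM, DNBS mice 12.7, 10.2 and 18.8 CPM, IL10 antibody mice 19.4, 16.8, 27.5 and 20.4 CPM, and wild-type controls 8.69, 7.19 and 8.12 CPM. T-cell transfer mice had 34, 25.5 and 30.2 CPM, anti-CD40 mice 8.83, 10.4 and 6.67 CPM, and Rag1-/- controls 3.73, 5.01 and 3.96 CPM. In all 6 models every mouse lay above every one of its controls, where groups that do not overlap were found, in either direction, for 58% of the 18616 genes tested in TRUC, 55.7% in IL10 antibody, 49.9% in DSS, 43.1% in T-cell transfer, 39.6% in anti-CD40 and 32.4% in DNBS mice. It was called higher in 4 of the 6. Of all genes, 22.4% were called higher in TRUC, 17.7% in DSS, 27.2% in IL10 antibody and 16.1% in T-cell transfer mice. The share called higher in as many models was not counted. In bulk tissue, more cells of a type and more RNA per cell cannot be told apart.

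Il10ra rose in TRUC by 3.79-fold (log2 change 1.92, SE 0.39, adjusted p = 0.000403, edgeR), in DSS by 5.75-fold (2.52, SE 0.39, adjusted p = 5.07e-05), in IL10 antibody mice by 2.63-fold (1.40, SE 0.37, adjusted p = 0.00293) and in T-cell transfer by 7.06-fold (2.81, SE 0.41, adjusted p = 1.26e-05). Without DSS mouse 8 the DSS fold was 2.73 and the call held (adjusted p = 0.000188). Against wild-type controls the T-cell transfer change was 1.90 on the log2 scale (adjusted p = 0.000865). The log2 changes in DNBS (0.80, SE 0.38, adjusted p = 0.204) and anti-CD40 (1.02, SE 0.41, adjusted p = 0.0755) were not past the threshold, and with DESeq2 on the groups compared both were (adjusted p = 0.0341 and 0.00239).

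Leukocyte markers moved with Il10ra. All 4 (Ptprc, Cd52, Coro1a and Laptm5) rose in each of TRUC, DSS, IL10 antibody, T-cell transfer and anti-CD40, and none passed the threshold in DNBS. Their sum ran from 35.0 to 60.1 CPM in Rag2-/- controls and from 146 to 222 CPM in TRUC. As a percentage of that sum in the same mouse, Il10ra was 7.29 to 11.1 in Rag2-/- controls and 7.26 to 9.61 in TRUC, 4.82 to 7.09 in wild-type controls and 5.97 to 8.17 in DSS, so these ratios overlapped between model and control. DNBS (6.01 to 6.86) and IL10 antibody mice (4.01 to 5.78) overlapped wild-type controls as well. Against 8.80 to 10.3 in the Rag1-/- controls, the ratio was lower without overlap in both T-cell transfer (5.38 to 6.99) and anti-CD40 (7.90 to 8.61) mice. Against the other controls both overlapped, T-cell transfer with wild-type (4.82 to 7.09) and anti-CD40 with Rag2-/- controls (7.29 to 11.1). As a percentage of summed macrophage and monocyte markers (Cd68, Adgre1, Csf1r, Itgam, Ly6c2, Ccr2 and Cd14), Il10ra was lower in TRUC (1.91 to 2.46) than in Rag2-/- controls (2.69 to 3.40). It was higher in T-cell transfer (5.46 to 5.81) than in Rag1-/- controls (2.31 to 3.89) and lower in anti-CD40 (1.11 to 1.77). None of these ranges overlapped. T-cell transfer also stayed above wild-type controls (3.59 to 5.28) and anti-CD40 below Rag2-/- controls. DSS (3.96 to 5.70), DNBS (3.53 to 5.71) and IL10 antibody mice (2.91 to 5.805) overlapped wild-type controls. The picture thus depends on the marker list and, for the leukocyte markers, on the control. The plot of Il10ra against the summed markers shows every mouse.

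**Figure D2:**
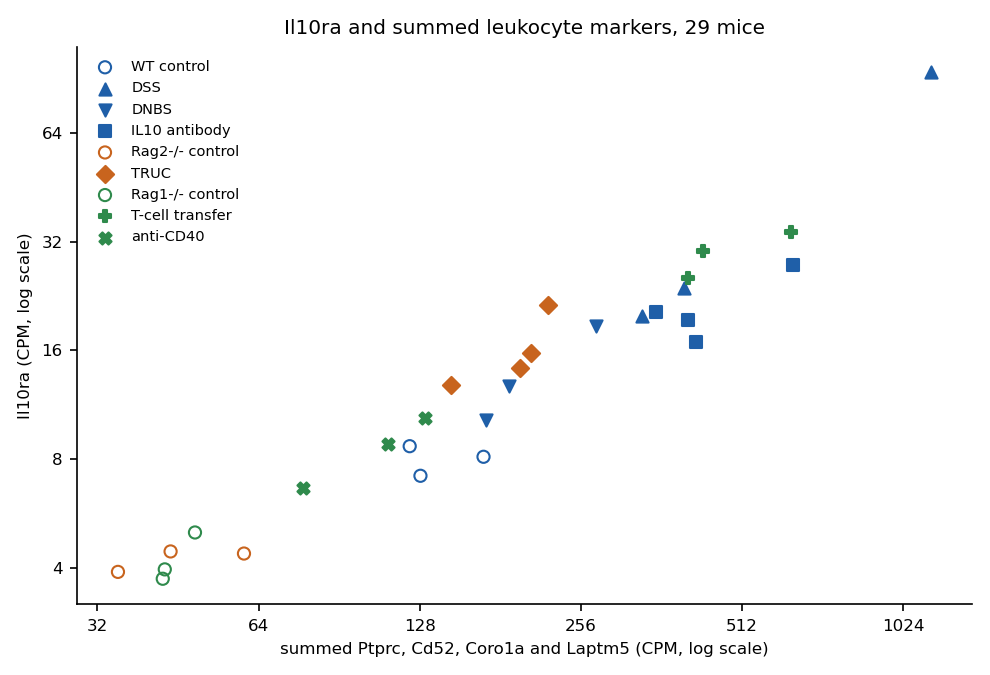
Il10ra (vertical axis, CPM, log scale) against the summed level of the leukocyte markers Ptprc, Cd52, Coro1a and Laptm5 (horizontal axis, CPM, log scale) in 29 mice; each point is 1 mouse, open symbols are untreated controls and filled symbols colitis models. Mice with a higher marker sum had more Il10ra, from 3.73 CPM in a Rag1-/- control to 94.4 CPM in DSS mouse 8, which has a marker sum of 1155 CPM.

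Il10rb, the chain shared by the receptors for IL-10, IL-22 and the lambda interferons, was nearly level. It ranged from 33.9 to 53.1 CPM in 28 of 29 mice and reached 78.8 CPM in IL10 antibody mouse 4. In none of the 6 models was its change past the threshold, with log2 changes from -0.19 to 0.33 (SE 0.16 or 0.17); without IL10 antibody mouse 1 the change there was 0.44 (adjusted p = 0.0270). Of its exon bases 14.9% overlap the gene model Gm21970, so some of its reads may have been left out of the count.

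Il22ra1, the epithelial IL-22-binding chain, fell in the models that started from wild-type mice. Wild-type controls had 72.5, 72.9 and 71.8 CPM, DSS mice 38.9, 52.0 and 60.9 CPM, DNBS mice 48.6, 46.0 and 43.7 CPM, and IL10 antibody mice 62.0, 60.3, 46.0 and 40.6 CPM. All 10 treated mice lay below all 3 controls, whose spread was small (SD 0.592). The log2 changes were -0.52 in DSS (SE 0.19, adjusted p = 0.0398, edgeR), -0.65 in DNBS (SE 0.19, adjusted p = 0.0444) and -0.47 in IL10 antibody mice (SE 0.18, adjusted p = 0.0297), close to the threshold. Leaving out any 1 of the 3 wild-type controls lost all 3 calls, with adjusted p up to 0.0807 in DSS, 0.128 in DNBS and 0.0616 in IL10 antibody mice. The calls were also lost without DSS mouse 5 or 6 (adjusted p up to 0.173), DNBS mouse 14 or 16 (up to 0.160) and IL10 antibody mouse 3 or 4 (up to 0.0904).

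In the other models Il22ra1 did not pass the threshold. TRUC mice had 86.6, 108, 86.1 and 68.7 CPM against 62.2, 86.1 and 74.7 CPM in Rag2-/- controls (log2 change 0.23, SE 0.18, adjusted p = 0.300). T-cell transfer mice had 49.5, 41.5 and 47.1 CPM against 53.8, 53.3 and 70.4 CPM in labelled controls (-0.36, SE 0.19, adjusted p = 0.164), and against wild-type controls the change was -0.65 (SE 0.19, adjusted p = 0.0128). Anti-CD40 mice, at 42.6, 65.6 and 67.5 CPM, overlapped their controls. Summed epithelial markers were lower in all 3 DSS mice (6586, 8077 and 6833 CPM) than in every wild-type control (8489, 8331 and 9984 CPM), where 1 of the 7 rose and 2 fell. In DNBS mice the sum was 9107, 9549 and 12110 CPM and no marker passed the threshold, and in IL10 antibody mice 6 of 7 rose; the part of epithelial content in the level of Il22ra1 was not tested.

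Il22ra2, the decoy that binds IL-22, varied widely between mice of 1 group. IL10 antibody mice had 5.73, 4.26, 11.2 and 1.05 CPM, TRUC mice 6.12, 0.801, 4.31 and 5.05 CPM, T-cell transfer mice 10.1, 1.88 and 5.38 CPM and anti-CD40 mice 8.64, 3.52 and 2.23 CPM. Controls had 4.80, 5.79 and 6.73 CPM in wild-type, 5.58, 6.28 and 10.7 CPM in Rag2-/- and 16.5, 13.6 and 13.1 CPM in Rag1-/- mice, the last being above every other mouse of the study. DSS mice had 3.34, 2.12 and 4.32 CPM and DNBS mice 4.00, 1.86 and 2.64 CPM, all below the wild-type controls. No model passed the threshold (log2 changes from -1.60 in anti-CD40 to -0.04 in IL10 antibody mice, SE 0.58 to 0.64). Leaving out 1 mouse brought 2 of them past it, T-cell transfer without mouse 1 (-1.99, adjusted p = 0.0377) and anti-CD40 without mouse 6 (-2.33, adjusted p = 0.0326), and DESeq2 called these and DNBS (adjusted p = 0.00914, 0.000199 and 0.0459). The log2 change of -1.31 in T-cell transfer became 0.01 against wild-type controls, and that of -1.60 in anti-CD40 (adjusted p = 0.0689) became -0.66 (adjusted p = 0.468) against Rag2-/- controls.

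Il20ra, a ligand-binding chain for IL-19, IL-20 and IL-24, was at 0 to 17 counts per mouse. DSS mice had 0.315, 0.752 and 1.36 CPM (5, 11 and 17 counts) and wild-type controls 0.152, 0.0666 and 0.0820 CPM (1 or 2 counts). All 3 DSS mice were above the controls (log2 change 2.87, SE 0.81, adjusted p = 0.00847, edgeR); without mouse 8 the fold of means was 5.32 in place of 8.06, and Il20ra then fell below the mean of 3 counts and was not tested. T-cell transfer mice had 2, 9 and 7 counts against 0, 4 and 1 in labelled controls (log2 change 1.93, SE 0.84, adjusted p = 0.0871), and against wild-type controls the change was 2.30 (SE 0.87, adjusted p = 0.0472). Against labelled controls it passed without T-cell transfer mouse 1 (adjusted p = 0.0390) or Rag1-/- control mouse 3 (0.0367).

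Il20rb, the chain that pairs with IL20RA or IL22RA1 in the receptors for IL-19, IL-20 and IL-24, had a pattern unlike the others. Wild-type controls had 5.94, 4.4 and 4.10 CPM, DSS mice 3.46, 2.60 and 3.60 CPM, DNBS mice 4.12, 3.49 and 3.16 CPM, and IL10 antibody mice 4.97, 2.91, 3.77 and 6.69 CPM. Rag2-/- controls had 1.95, 0.842 and 1.13 CPM, TRUC mice 0.811, 0.979, 0.641 and 0.651 CPM, Rag1-/- controls 0.568, 1.33 and 0.344 CPM, and anti-CD40 mice 0.470, 1.03 and 0.861 CPM. T-cell transfer mice, labelled with the same strain as the last 2 groups, had 4.37, 3.25 and 2.22 CPM and sat with the wild-type animals.

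Il20rb was higher in T-cell transfer than in its labelled controls from 0.746 ± 0.515 to 3.28 ± 1.07 CPM (SD, n = 3 each; log2 change 2.10, SE 0.40, adjusted p = 0.000317, edgeR), and against wild-type controls the change turned to -0.55 (SE 0.35, adjusted p = 0.235). It was lower in Rag2-/- than in wild-type controls (log2 change -1.89, SE 0.37, adjusted p = 0.00130). None of the other 5 models passed the threshold for Il20rb (log2 changes -0.74 to 0.06). The 13 mice with high H2-Ea-ps counts had a median of 0.842 CPM of Il20rb, with a highest value of 1.95. The other 16 had a median of 3.69 CPM, with a lowest value of 2.22. Both sets thus did not overlap, and no other tested member separated them. H2-Ea-ps was chosen after its values were seen. The share of all genes that separate the same sets was not counted. B- and plasma-cell markers summed to at most 1.79 CPM in the 13 mice, and to 2.14 to 4.45 CPM in the T-cell transfer mice, which had Il20rb at 2.22 to 4.37 CPM. T-cell markers were 2.21 to 8.81 CPM in the 13 mice, 4.42 to 20.0 CPM in DNBS and 87.0 to 158 CPM in T-cell transfer; the part of strain, lymphocytes and treatment in the level of Il20rb cannot be told apart. The plot of Il20rb against H2-Ea-ps shows the separation.

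**Figure D3:**
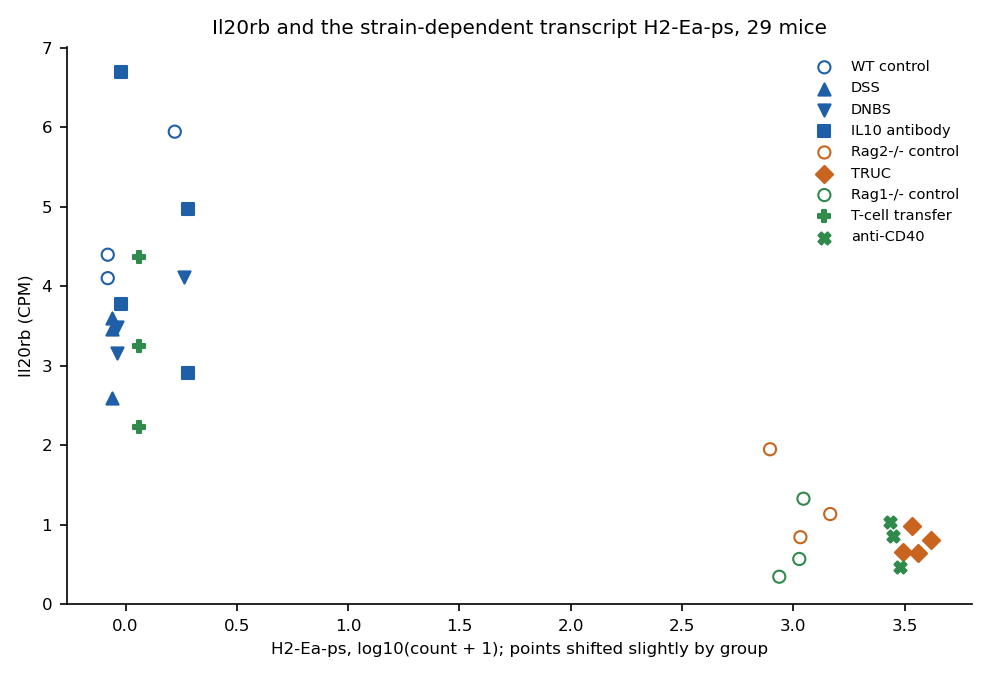
Il20rb (vertical axis, CPM) against H2-Ea-ps (horizontal axis, log10 of count + 1, points shifted slightly by group so that they can be seen) in 29 mice; open circles are untreated controls and filled symbols colitis models. The 13 mice with 784 or more H2-Ea-ps counts all lie at or below 1.95 CPM of Il20rb and the 16 mice with 0 or 1 count all lie at or above 2.22 CPM.

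Counted over the tested members, TRUC had 2 higher (Il22 and Il10ra) and 0 lower of 8, where 45.8% of all genes tested passed, 22.4% higher and 23.4% lower. DSS had 4 higher (Il10, Il22, Il10ra and Il20ra) and 1 lower (Il22ra1), where 34% of all genes passed, 17.7% higher and 16.3% lower; without mouse 8, 7 members were tested, 3 were higher and 1 lower, where 20.6% of 18591 genes passed. IL10 antibody mice had 2 higher (Il10 and Il10ra) and 1 lower (Il22ra1), where 53.3% passed, 27.2% higher and 26.1% lower. DNBS had 0 higher and 1 lower (Il22ra1), where 6.17% passed, 3.95% higher and 2.21% lower. T-cell transfer had 2 higher (Il10ra and Il20rb) and 0 lower, where 30.1% passed, 16.1% higher and 14% lower; against wild-type controls 2 were higher (Il10ra and Il20ra) and 1 lower (Il22ra1), where 30.8% passed. Anti-CD40 had 0 called with edgeR, where 21.6% passed, 10.9% higher and 10.7% lower, with 3 members (Il22, Il10ra and Il22ra2) at an unadjusted p under 0.05 and the same 3 called by DESeq2. Rag2-/- against wild-type controls had 0 higher and 1 lower (Il20rb), where 8.11% passed, 4.86% lower, and 37.9% of genes did not overlap between these groups. The shares called among the members were thus near or below those of all genes in TRUC, IL10 antibody, T-cell transfer and anti-CD40 mice. The median log2 change of all genes tested was between -0.03 and 0.02 in every comparison.

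**Figure D4:**
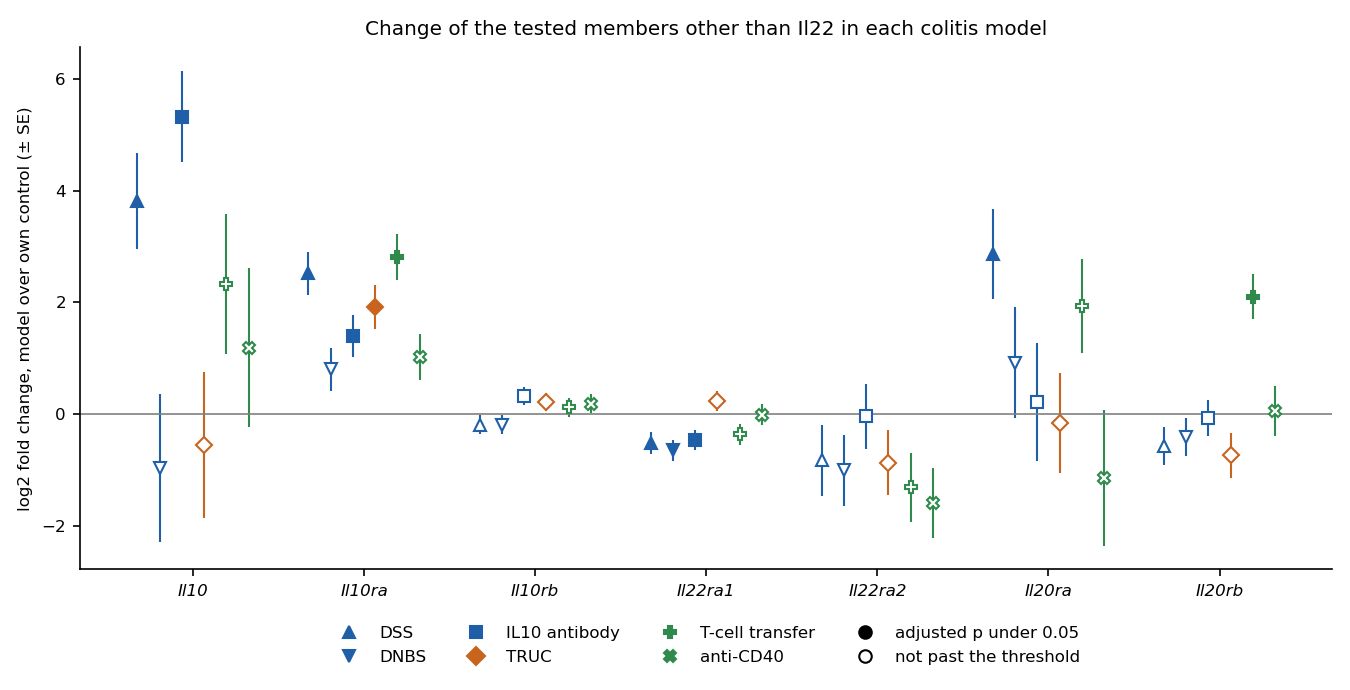
Log2 fold change (vertical axis) of 7 tested members (horizontal axis) in each colitis model over its own labelled control, with bars of 1 SE from the edgeR fit; filled symbols passed the adjusted p threshold and open symbols did not. Il22 is left out because its controls were at 0 counts in 5 of 6 models. Il10ra lies above 0 in all 6 models and is filled in 4 of them, and Il10rb stays between -0.19 and 0.33.

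An F test that the 6 model changes were equal (edgeR, adjusted over 18616 genes, of which 60.5% passed) gave an adjusted p of 6.51e-05 for Il10, 0.000261 for Il20rb, 0.000296 for Il10ra, 0.00297 for Il22, 0.00497 for Il20ra, 0.0458 for Il10rb, 0.0495 for Il22ra1 and 0.479 for Il22ra2. The models thus differed in 7 of the 8 tested members, Il10rb and Il22ra1 being close to the threshold; leaving out each mouse in turn gave 4 to 7 members, with 4 without T-cell transfer mouse 3 or 5 or DSS mouse 6. The DSS, DNBS and IL10 antibody comparisons share their wild-type controls, and T-cell transfer and anti-CD40 share theirs. For every member the test includes T-cell transfer against labelled controls that differ from it in H2-Ea-ps. Strain and treatment cannot be told apart in that part of the test.

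Epithelial genes known to respond to IL-22 rose in every model, including those where Il22 had few counts. Of 14 such genes, 14 rose in IL10 antibody mice, 13 in TRUC, 10 each in DSS and T-cell transfer, 9 in anti-CD40 and 8 in DNBS, and none fell. Their median log2 change was 5.16 in IL10 antibody mice, 4.17 in DSS, 3.91 in TRUC, 2.95 in DNBS, 2.85 in T-cell transfer and 2.77 in anti-CD40. With the other control groups 12 rose in T-cell transfer and 11 in anti-CD40, and 10 rose in DSS without mouse 8. Of all genes tested, 27.2% were higher in IL10 antibody mice, 22.4% in TRUC and 17.7% in DSS. The share was 16.1% in T-cell transfer, 10.9% in anti-CD40 and 3.95% in DNBS, and these shares also bear on the lists below. The lists were chosen with earlier results of these data known, so their counts carry no test. Nos2, the inducible nitric oxide synthase, had the largest log2 change past the threshold in DSS (10.23, SE 1.28), anti-CD40 (8.14, SE 1.11), T-cell transfer (7.47, SE 1.08) and DNBS (6.72, SE 1.21). Reg3b, an antimicrobial lectin, led in IL10 antibody mice (15.95, SE 2.17) and TRUC (12.32, SE 1.85). The highest Il22 mouse was in DSS, where Reg3b and Reg3g had log2 changes of 4.80 and 3.84 that were not past the threshold.

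Pla2g2a, a secreted phospholipase that C57BL/6 mice lack through a mutation, shows how the control bears on this list. It was higher in Rag2-/- than in wild-type controls by 7.46 on the log2 scale (SE 0.69, adjusted p = 2.50e-08, edgeR). In T-cell transfer its change was -0.87 (SE 0.48, adjusted p = 0.182) against labelled controls and 5.88 (SE 0.67, adjusted p = 2.38e-06) against wild-type controls. Neutrophil markers rose along with the list in every model (5 or 6 of 6 in each), and their part in it was not tested.

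**Figure D5:**
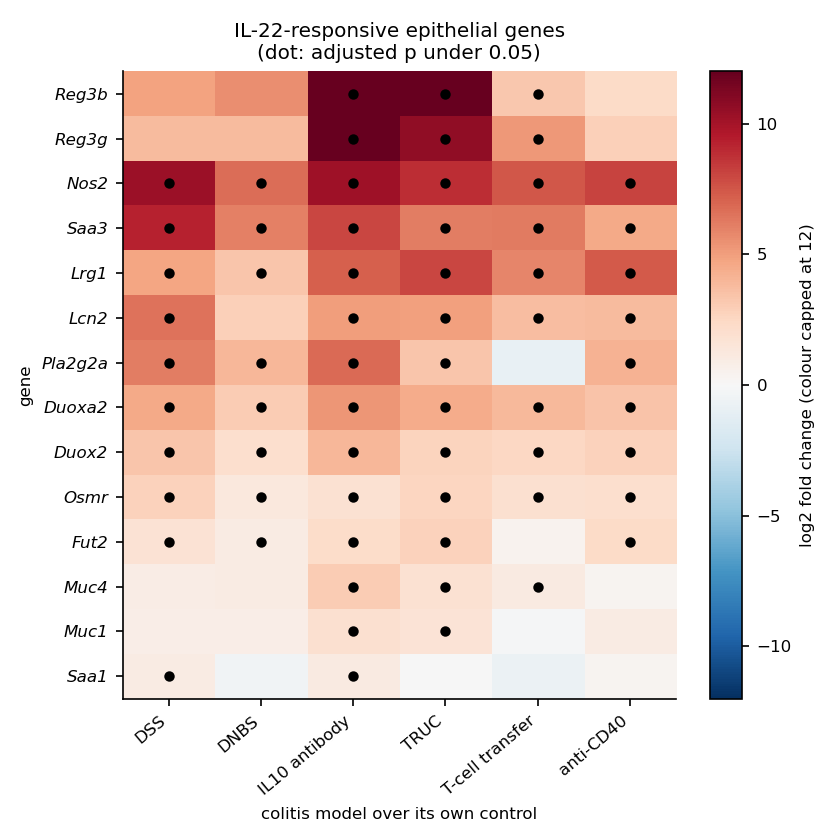
Log2 fold change (colour, capped at 12) of 14 IL-22-responsive epithelial genes (rows) in each of 6 colitis models over its own labelled control (columns); a black dot marks an adjusted p under 0.05. Columns hold between 8 dots (DNBS) and 14 dots (IL10 antibody), and Nos2, Saa3, Lrg1, Duoxa2, Duox2 and Osmr have a dot in all 6.

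Among 7 JAK-STAT genes, Socs1 and Socs3, feedback inhibitors of STAT signalling, rose in all 6 models. The list had 6 higher in DSS and in IL10 antibody mice, 5 in TRUC, 4 in anti-CD40, 3 in T-cell transfer and 2 in DNBS, and 0 lower; with the other control groups 5 were higher in T-cell transfer and 5 in anti-CD40. Socs1 had the largest log2 change in TRUC (5.00, SE 0.91) and IL10 antibody mice (4.91, SE 0.92), and Socs3 in DSS (5.39, SE 0.69). Stat3, which both IL-10 and IL-22 activate, rose in DSS (log2 change 1.04) and IL10 antibody mice (0.49); in DSS without mouse 8, 3 of the 7 genes were higher. Of 6 genes that IL-10 raises in macrophages, 5 were higher in TRUC, DSS and IL10 antibody mice, 4 in anti-CD40, 2 in T-cell transfer (4 against wild-type controls) and 0 in DNBS. Macrophage and monocyte markers rose too, 7 of 7 in TRUC and DSS, 6 in T-cell transfer, 4 in IL10 antibody, 2 in anti-CD40 and 1 in DNBS mice, and their part in this list was not tested. Il4ra, a chain of the IL-4 receptor, led this list in IL10 antibody mice (log2 change 2.63, SE 0.37) and in DSS (2.44, SE 0.38), and in DSS without mouse 8 2 of the 6 were higher.

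Inducers of Il22 moved in part. Il1b, encoding interleukin-1 beta, rose in all 6 models, from 2.94 (SE 1.00) in anti-CD40 to 8.47 (SE 1.07) in DSS on the log2 scale. Il12b, a subunit shared by IL-12 and IL-23, rose in DSS, T-cell transfer, IL10 antibody mice and TRUC, while Il23a, the IL-23-specific subunit, did not pass the threshold in any model. Il18, encoding interleukin-18, fell in T-cell transfer (-1.66, SE 0.46, adjusted p = 0.00827) and was the one gene of this list that fell in a model; against wild-type controls no gene of the list fell. Genes of type 3 lymphocytes, which make IL-22, went both ways. Of 8 such genes, 4 rose and 1 fell in DSS, and without mouse 8 2 rose and 1 fell. In IL10 antibody mice 2 rose and 3 fell, and in T-cell transfer 1 rose and 1 fell. In TRUC and DNBS 0 rose and 1 fell, and in anti-CD40 0 rose and 2 fell. Il17a rose in DSS (8.78, SE 2.02) and IL10 antibody mice (6.72, SE 2.32), and Il7r led in T-cell transfer (3.54, SE 0.46). Ahr, the aryl hydrocarbon receptor, fell in TRUC, IL10 antibody and anti-CD40 mice. Of 5 other family genes only Ifnlr1, the lambda interferon receptor chain that pairs with IL10RB, was tested, and it rose in TRUC (0.77, SE 0.16, adjusted p = 0.000662) and anti-CD40 (0.48, SE 0.17).

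The genes whose log2 level was most like that of each member over the 29 mice are given as a description, by Pearson's r with Spearman's rho after it, since mice of a group share their treatment. Il10ra was most like Itgb2 (0.978, rho 0.975), Lcp1 (0.977, rho 0.972) and Ptprc (0.974, rho 0.962), genes of leukocytes in general. Il22 was most like Myd88 (0.936, rho 0.914), an adaptor of Toll-like and interleukin-1 receptors, Gbp5 (0.914, rho 0.848) and Tnfaip3 (0.904, rho 0.847). Il10 was most like the immunoglobulin segments Igkv13-84 (0.894, rho 0.651), Ighv1-9 (0.885, rho 0.586) and Ighv1-31 (0.874, rho 0.653). Il20rb was most like Pnp2 (0.935, rho 0.864), 5830444B04Rik (0.934, rho 0.908) and Gm13370 (0.931, rho 0.838). Pnp2 had 0 to 3 counts in the 13 mice with high H2-Ea-ps and 48 to 725 in the other 16, the same split as for Il20rb. The leading genes of the other receptors were Tekt3 for Il22ra2 (0.815, rho 0.822), Psd4 for Il10rb (0.803, rho 0.761), Larp6 for Il20ra (0.799, rho 0.623) and Htr1b for Il22ra1 (0.753, rho 0.710).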

How the data were processed

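The authors deposited raw read counts per gene and mouse for 29 colon poly(A) libraries (NEBNext Ultra kit). The submitters' processing notes name Trimmomatic, HISAT2 and HTSeq with GRCm38; versions, strand setting and treatment of multi-mapped reads are not given in the sources used here. Reads of near-identical genes may therefore be lost or split. Symbols were found for 54409 of 54532 genes, and 92 spike-ins had 0 counts and were left out.

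Counts were fitted with edgeR 4.0.16 (R 4.3.3, quasi-likelihood, TMM) over genes with a mean of at least 3 counts (18616), all 9 groups in 1 fit without covariates. SE is the log2 change over the square root of F, and p-values were Benjamini-Hochberg adjusted over all genes tested, threshold 0.05. CPM intervals and floors cover counting error only. The steps were tested on simulated data. The members and the gene lists were chosen with earlier results of these data known. Named are all 10 members and, from each list, genes with the largest and smallest change past the threshold, and the 3 genes most correlated with each member; H2-Ea-ps, Pla2g2a, Stat3, Il23a, Reg3g and the genes in the check of labels were chosen after their values were seen. Alternatives used other scalings, filters, DESeq2 1.42.0, other controls, a replicate block and leaving out each mouse. A few marker and pathway genes are not reported here.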

Additional observations from a re-analysis of the deposited data

Results flagged for a closer look

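Il20ra stood out in TRUC mice because mouse 2 (0.369 CPM, 5 counts) was far from the other 3 (1 count each), with a gap of 0.965 of the group's range, above Dixon's critical value for 4 mice. Chance puts about 1 of 20 groups above that value for normally distributed values, a rate that does not describe counts this low.

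The changes of 7 members differed between the 6 colitis models by an F test of equal contrasts, which 60.5% of all genes tested passed. They were Il10 (adjusted p = 6.51e-05, edgeR, adjusted over all genes tested), Il20rb (0.000261), Il10ra (0.000296), Il22 (0.00297), Il20ra (0.00497), Il10rb (0.0458) and Il22ra1 (0.0495). Il10, Il22 and Il20ra passed the count filter through the groups where they were high, so their results carry no test of the family. All these differences include T-cell transfer, whose labelled controls differ from it in H2-Ea-ps. They also include DSS mouse 8, the highest DSS mouse for Il10, Il22, Il10ra and Il20ra.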

How the results depend on the processing

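Of 764 values of single members under the alternatives, 674 kept their direction and side of the threshold, 28 lost and 26 gained a call, and 36 changed sign. The number of members called moved by over 1.5 times as follows. At an adjusted p under 0.01 it was 1 in TRUC and 0 in DNBS. In DSS it was 3 with the filterByExpr filter and 3 with edgeR on the groups alone. With edgeR on the groups alone it was 4 in T-cell transfer, 3 in anti-CD40 and 2 in Rag2-/- against wild-type controls, with DESeq2 4, 3 and 2, and 3 in DNBS. With no filter it was 1 in anti-CD40. Leaving out each mouse in turn gave 1 to 2 in TRUC, 3 to 4 in DSS, 0 to 1 in DNBS, 2 to 4 in IL10 antibody, 2 to 4 in T-cell transfer, 0 to 1 in anti-CD40 and 4 to 7 members that differed between models. Under the alternatives the share of all genes called was counted only for DSS without mouse 8 (20.6%) and T-cell transfer against wild-type controls (30.8%). Whether the other counts moved with the calls of all genes is therefore not known. The cause was not tested.

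Sign changes were among log2 changes that were not called, apart from Il20rb in T-cell transfer against wild-type controls (-0.55). With other controls they were Il10rb (-0.0703) and Il22ra2 (0.0054) in T-cell transfer and Il20rb in anti-CD40 (-0.70). Il22ra1 in anti-CD40 was 0.0246 with no filter and 0.0149 with DESeq2, and with upper quartile scaling Il20rb in anti-CD40 was -0.0032 and Il22ra1 in Rag2-/- against wild-type controls -0.0255. Leaving out a mouse gave ranges that cross 0 for Il10 in TRUC (-2.17 to 1.17) and in Rag2-/- controls (-2.03 to 0.20), Il20ra in TRUC (-1.01 to 0.41), IL10 antibody (-0.13 to 0.65) and anti-CD40 (-3.81 to 0.32), Il22ra2 in IL10 antibody (-0.63 to 0.29), Il20rb in IL10 antibody (-0.31 to 0.10) and anti-CD40 (-0.26 to 0.78), Il22ra1 in anti-CD40 (-0.12 to 0.17) and Rag2-/- controls (-0.0801 to 0.15), and reach 0 for Il22 in DNBS (0.00 to 6.31, without mouse 16) and in Rag2-/- controls (0.00 to 3.19, without mouse 2).

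TRUC, IL10 antibody and Rag2-/- control mice share replicate numbers with their controls. Deviations of same-numbered mice correlated (Pearson) between -0.0812 and 0.0738, so the numbers gave no sign of pairing. With the replicate block the number called was 2 in TRUC, 3 in IL10 antibody (Il22 gained, Il22ra1 lost, adjusted p = 0.0330 and 0.0608) and 2 in Rag2-/- against wild-type controls, and Il20ra was 0.0182 in TRUC and -0.0587 in IL10 antibody mice.

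Depth limits Il10, Il19, Il22, Il24 and Il20ra, which had 0 to 7 counts in most mice.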
